A study of Mus musculus with 2 samples.

Results

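Kainate receptor subunits (Grik1 to Grik5), their auxiliary proteins Neto1 and Neto2 and the delta receptor subunit Grid1 were measured in the left cerebral cortex of mice. The 8 genes were taken by symbol and not by level, out of 55536 annotated genes in the tables. The choice was made with earlier results of these data known. The animals were female B6CASTF1/J mice, first-generation hybrids of the C57BL/6J and CAST/EiJ strains, aged 2 months and obtained from The Jackson Laboratory. There was 1 group, untreated as far as the labels say, with 2 biological replicates, 1 library of total RNA from 300 ng each, and ERCC spike-ins, synthetic RNAs of known amount, were added. Both replicates carry the same donor entry in the labels, so nothing in them says in words that they are separate animals, and the spread between them may be technical. With 1 group, the comparisons possible were between the genes, between their transcripts, between both replicates, and between both ways in which the authors quantified the same libraries. No comparison of conditions and no p-value follows from this design.

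Kainate receptors are tetrameric glutamate-gated cation channels. The core subunits GluK1, GluK2 and GluK3 (Grik1, Grik2, Grik3) form channels alone, whereas the high-affinity subunits GluK4 and GluK5 (Grik4, Grik5) need a core subunit to reach the cell surface. Neto1 and Neto2 are single-pass membrane proteins with CUB domains that slow channel closing and desensitization. In cortex, kainate receptors act on both sides of the synapse and on interneurons. Grid1 encodes GluD1, which is not opened by glutamate and works as a synaptic organizer that is held by cerebellins to presynaptic neurexins.

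The libraries held 31196858 expected counts in replicate 1 and 32292150 in replicate 2, and the members held between 602 and 6863 of them in a library. Markers of cortical cells were present: Slc17a7, of excitatory neurons, averaged 550 TPM and Gad1, of inhibitory neurons, 179 TPM. Of the 3 cerebellar markers, none reached 1 TPM in both libraries, with Gabra6 at 0 in replicate 1 and Pcp2 at 0 in replicate 2. All 4 striatal markers were detected, with a summed level of 239.6 TPM in replicate 1 and 184.1 in replicate 2. The 3 choroid plexus markers summed to 8.70 TPM in replicate 1 and 37.2 in replicate 2, mostly Ttr, and the 4 oligodendrocyte markers to 586 and 640 TPM. The part of these 3 lists in the values below was not tested. In a bulk sample, fewer cells of a type and less RNA per cell cannot be told apart.

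Several results turn on alternative exons, and their sequences are given here 5′ to 3′ on the transcript's strand, from the GENCODE M21 transcripts on mm10. In Grik1 a cassette exon of 45 bases adds 15 codons to the extracellular part, and one of 87 bases adds 29 codons to the intracellular tail. The capitals mark each cassette exon and the lower-case letters the 15 spliced bases on either side. The exons lie on the minus strand at chr16:87955289-87955333 and chr16:87896809-87896895.
Grik1 45-base exon: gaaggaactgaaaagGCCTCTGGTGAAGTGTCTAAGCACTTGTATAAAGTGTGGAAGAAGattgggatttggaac
Grik1 87-base exon: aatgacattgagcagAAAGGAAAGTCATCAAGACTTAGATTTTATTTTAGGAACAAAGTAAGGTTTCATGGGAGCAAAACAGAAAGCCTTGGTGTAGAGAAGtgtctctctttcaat

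Grik2 had 4 annotated coding ends with different last exons, all on the minus strand. The long end (chr10:49101111-49101272, 162 coding bases) belongs to the form known as GluK2a, whose tail carries a basic signal for export from the endoplasmic reticulum. The short end (chr10:49105021-49105065, 45 coding bases) belongs to the form known as GluK2b. A middle end (chr10:49103532-49103648, 117 coding bases) follows the same upstream exon. The early end (chr10:49496098-49496160, 63 coding bases) closes the coding sequence inside the extracellular amino-terminal region, before any membrane segment. The capitals mark the coding bases of the last exon, the first 15 lower-case bases are the spliced exon before it, and the last 3 are the stop codon.
Grik2 long coding end: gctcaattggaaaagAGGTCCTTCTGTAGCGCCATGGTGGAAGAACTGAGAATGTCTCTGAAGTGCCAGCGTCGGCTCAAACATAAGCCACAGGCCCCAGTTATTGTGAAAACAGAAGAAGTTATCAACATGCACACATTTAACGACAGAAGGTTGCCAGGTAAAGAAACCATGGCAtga
Grik2 short coding end: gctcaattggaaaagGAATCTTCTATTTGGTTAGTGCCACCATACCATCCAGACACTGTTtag
Grik2 middle coding end: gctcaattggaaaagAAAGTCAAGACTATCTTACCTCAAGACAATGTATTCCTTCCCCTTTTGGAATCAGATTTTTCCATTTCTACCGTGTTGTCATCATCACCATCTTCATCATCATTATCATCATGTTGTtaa
Grik2 early coding end: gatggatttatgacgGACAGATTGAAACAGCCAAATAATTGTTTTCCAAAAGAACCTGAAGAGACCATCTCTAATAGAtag

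All 8 genes were detected in both libraries at 1 TPM or more in both kinds of table. TPM is a length-corrected share of all transcripts in a library, and levels are given from the alignment-based gene tables as the value in each replicate and as mean ± SD over n = 2 libraries. Over all transcripts, the highest member was Grik5 and the lowest Grik4, both of them high-affinity subunits. From the highest down, the order was Grik5, Neto1, Grik2, Neto2, Grid1, Grik3, Grik1 and Grik4, and in no pair of neighbours did the libraries of one gene overlap those of the next. The order below Grik5 depended on which transcripts were summed and on the kind of table, as given below for each gene.

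Among the core subunits, Grik2 had the highest gene-level TPM. Grik2 (ENSMUSG00000056073.16, chr10:49094833-49788766, minus strand, 693.9 kb) was at 37.8 TPM in replicate 1 and 31.3 in replicate 2, or 34.5 ± 4.62 TPM. It lay above 73.9% of the 12945 nuclear protein-coding genes that reached 1 TPM in both libraries. Grik3 (ENSMUSG00000001985.9, chr4:125490700-125714173, plus strand) was at 19.6 TPM in both replicates, or 19.6 ± 0.021 TPM, above 56.4% of those genes. Grik1 (ENSMUSG00000022935.16, chr16:87895900-88290265, minus strand) was at 9.82 TPM in replicate 1 and 8.84 in replicate 2, or 9.33 ± 0.693 TPM, above 33.9% of those genes. Grik1 was thus the lowest core subunit in both libraries, and the gene-level TPM of Grik2 was 3.85 times that of Grik1 in replicate 1 and 3.54 times in replicate 2.

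The high-affinity subunits stood at opposite ends of the gene-level order. Grik5 (ENSMUSG00000003378.9, chr7:25009849-25072346, minus strand) was at 95.97 TPM in replicate 1 and 93.3 in replicate 2, or 94.6 ± 1.92 TPM, above 92.4% of detected protein-coding genes. Grik4 (ENSMUSG00000032017.14, chr9:42518135-42944493, minus strand) was at 7.28 TPM in replicate 1 and 7.59 in replicate 2, or 7.44 ± 0.219 TPM, above 27.9% of them. Grik5 was 13.2 and 12.3 times as high as Grik4 in replicates 1 and 2. In the read-based tables this ratio was 12.4 in replicate 1 and 11.9 in replicate 2, and over transcripts with a near-full coding sequence alone it was 11.1 and 10.02 in the alignment-based tables and 7.87 and 8.00 in the read-based ones. A transcript counted as near-full coding when it was annotated as protein-coding with complete ends and carried at least 80% of the longest coding sequence of its gene. On that measure Grik1 and not Grik4 was the lowest member: Grik4 was at 7.28 and 7.60 TPM and Grik1 at 6.73 and 6.0 TPM in replicates 1 and 2. The read-based tables gave the same order without overlap, with Grik4 at 11.6 and 12.1 TPM and Grik1 at 10.9 and 10.6 TPM.

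The summed level of Grik4 and Grik5 exceeded that of the 3 core subunits. The high-affinity subunits summed to 103 TPM in replicate 1 and 101 in replicate 2, against 67.2 and 59.7 TPM for the core subunits. The ratio was 1.54 in replicate 1 and 1.69 in replicate 2. It stayed above 1 in the read-based tables (1.504 and 1.61) and over near-full coding transcripts alone (1.96 and 1.87 in the alignment-based tables, 1.51 and 1.54 in the read-based ones). Grik5 alone supplied nearly the whole high-affinity sum.

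The auxiliary genes Neto1 and Neto2 had similar levels once short transcripts were left out. Neto1 (ENSMUSG00000050321.3, chr18:86394952-86506718, plus strand) was at 44.7 TPM in replicate 1 and 38.9 in replicate 2, or 41.8 ± 4.12 TPM. Neto2 (ENSMUSG00000036902.11, chr8:85636588-85700924, minus strand) was at 25.1 TPM in replicate 1 and 24.5 in replicate 2, or 24.8 ± 0.431 TPM. The ratio of Neto1 over Neto2 was 1.78 in replicate 1 and 1.59 in replicate 2 at the gene level, but 0.869 and 0.922 over near-full coding transcripts, and 0.852 and 1.01 in the read-based tables. The gene-level direction therefore turned with the transcripts and the table used.

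The delta subunit Grid1 (ENSMUSG00000041078.7, chr14:34820108-35583379, plus strand) had the longest genomic span of the members, 763.3 kb. It was at 20.7 TPM in replicate 1 and 20.4 in replicate 2, or 20.5 ± 0.17 TPM, above 57.8% of detected protein-coding genes. Its libraries lay just above those of Grik3, while the authors' credibility intervals for TPM, whose level the files do not state, overlapped: 19.3 to 22.3 for Grid1 and 18.4 to 19.6 for Grik3 in replicate 1. The order of the pair was the opposite in the read-based tables, with Grid1 at 27.0 and 26.7 TPM and Grik3 at 28.3 and 29.2 TPM in replicates 1 and 2.

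**Figure D1:**
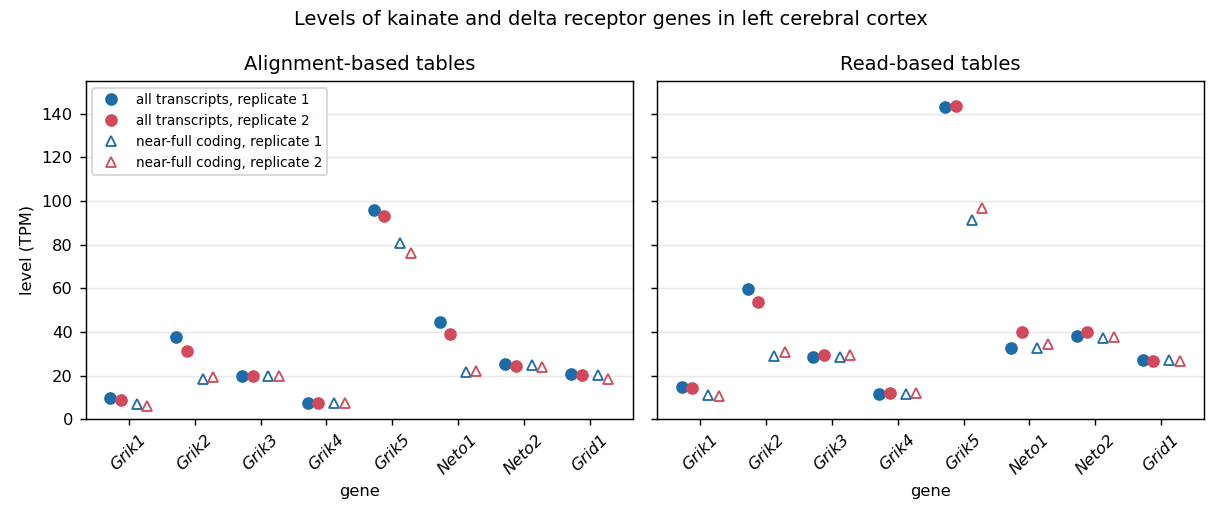
Level in TPM of each gene by replicate, in the alignment-based tables (left) and the read-based tables (right). Filled circles sum all annotated transcripts and open triangles only near-full coding ones; Grik5 is highest throughout, and in the alignment-based panel Neto1, Grik2 and Grik5 show the widest gaps between circle and triangle.

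The read-based tables gave higher TPM for most genes. Over detected protein-coding genes, the alignment-based TPM divided by the read-based TPM had a median of 0.645 in replicate 1 and 0.616 in replicate 2, with 5th to 95th percentiles of 0.431 to 0.824 and 0.413 to 0.797. For 7 of the 8 members this ratio lay between 0.584 and 0.766 in both replicates. Neto1 was the exception, at 1.37 in replicate 1 and 0.968 in replicate 2, above the 95th percentile in both.

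A single short transcript carried much of the Neto1 TPM. Neto1-203, an annotated processed transcript of 384 bases, held 20.8 TPM in replicate 1 and 14.3 in replicate 2, which was 46.5% and 36.8% of the gene's TPM. It rested on 121 and 89.2 expected counts, 3.18% and 2.16% of the gene's counts. All of its 384 bases also lie in other annotated Neto1 transcripts, and the read-based tables listed it at 0 in both replicates. The annotation tags it as not organism-supported. The full-length transcript Neto1-201 (8352 bases, 533 codons) held 21.7 TPM in replicate 1 and 22.3 in replicate 2, from 3666 and 4020 counts, and the replicates were close on this transcript. Neto1-202, an incomplete coding fragment of 527 bases also contained in other transcripts, was at 2.19 and 2.33 TPM, and at 0 and 5.71 TPM in the read-based tables.

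Grik2 had 11 annotated transcripts, and the largest share of its TPM or counts held by any of them, in either library of either table, was 31.7%. In the alignment-based tables the leading transcript by TPM was the truncated Grik2-210 (338 codons), with 9.60 TPM in replicate 1 and 7.49 in replicate 2, or 25.4% and 23.96% of the gene. In the read-based tables Grik2-204, with the short coding end, led with 22.2% and 22.02%. By expected counts Grik2-207, the transcript of 9427 bases with the long coding end, led with a mean of 29.2%. The leader thus depended on the table and on whether length was corrected for. In alignment-based TPM, Grik2-202 and Grik2-207, which share the long coding end, held 5.88 and 3.58 in replicate 1, and 6.59 and 3.95 in replicate 2. Grik2-204 and Grik2-201, which share the short one, held 6.13 and 2.31 in replicate 1, and 6.71 and 1.93 in replicate 2. The retained-intron transcript Grik2-203 was at 3.99 TPM in replicate 1 and 3.79 in replicate 2.

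Much of the gap between the replicates in Grik2 TPM came with another short transcript. The truncated Grik2-210 was also lower in replicate 2, at 7.49 TPM against 9.60 in replicate 1. Grik2-206, an incomplete coding fragment of 539 bases that is wholly contained in other Grik2 transcripts, was at 4.65 TPM in replicate 1 and 0 in replicate 2, from 41.8 and 0 counts. It was at 11.7 and 3.53 TPM in the read-based tables, so it was listed in both libraries there. Near-full coding transcripts of Grik2 summed to 18.6 TPM in replicate 1 and 19.2 in replicate 2. On that measure Grik2 over Grik3 was 0.948 in replicate 1 and 0.979 in replicate 2, against 1.92 and 1.59 at the gene level. In the read-based tables the same measure gave 1.02 and 1.06.

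Among near-full coding Grik2 transcripts, the long and the short ends were present in similar amounts. In the alignment-based tables the long end held 50.8% in replicate 1 and 54.95% in replicate 2, and the short end 45.3% and 45.05%. By the read-based quantification the long end held 44.3% and 51.1%, and the short end 49.7% and 48.9%. Neither end was ahead in all 4 tables. The middle end was at 3.87% in replicate 1 and 0% in replicate 2 in the alignment-based tables, and at 6.06% and 0% in the read-based ones, so it was listed in only 1 of the libraries.

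Grik1 was measured with few counts, 649 in replicate 1 and 602 in replicate 2, spread over 11 annotated transcripts. The 45-base exon was included in 16.03% and 22.1% of the TPM of transcripts that span it, and in 20.4% and 22.9% in the read-based tables. It was the minority form in all 4 tables. Transcripts with the exon summed to 1.43 TPM in replicate 1 and 1.68 in replicate 2 in the alignment-based tables. Of these, the noncoding retained-intron Grik1-208 held 0.99 and 0.66 TPM, so the percentages are not shares of coding transcripts. The rest was Grik1-211, at 0.44 and 1.02 TPM, with a lower credibility bound of 0.0001 in both replicates. Among complete coding transcripts, the common last exon of 153 coding bases without the 87-base exon, the tail of the form known as GluK1b, held 53.2% in replicate 1 and 56.7% in replicate 2. The same end with the 87-base exon, the tail of the form known as GluK1c, held 31.1% and 33.8%. The read-based tables put these at 24.7% and 35.9% without the exon, and 44.4% and 36.0% with it. The 2 tables of each library thus differed on which tail was more abundant, though narrowly for the read-based table of replicate 2, and the leading transcript was Grik1-201 (905 codons) in the alignment-based tables and Grik1-202 (934 codons) in the read-based ones. Neither has a base that is absent from every other Grik1 transcript.

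Other Grik1 coding ends were lower. An end of 147 coding bases held 15.8% in replicate 1 and 9.50% in replicate 2, while the read-based tables gave 23.01% and 16.7%. An end of 6 coding bases, in Grik1-210, was listed at 0 in the alignment-based tables and held 7.84% and 11.5% in the read-based ones. Transcripts annotated as retained introns held 31.4% and 32.1% of all Grik1 TPM, and 25.4% and 25.7% in the read-based tables, which was the highest retained-intron share among the members in both kinds of table. These were chiefly Grik1-204, Grik1-207 and Grik1-208, each between 0.66 and 1.23 TPM in the alignment-based tables. The coding transcripts Grik1-206, with the end of 147 bases, and Grik1-211, with the 45-base exon, were at 1.06 and 0.44 TPM in replicate 1, and at 0.53 and 1.02 TPM in replicate 2, so that their order differed between the libraries.

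**Figure D2:**
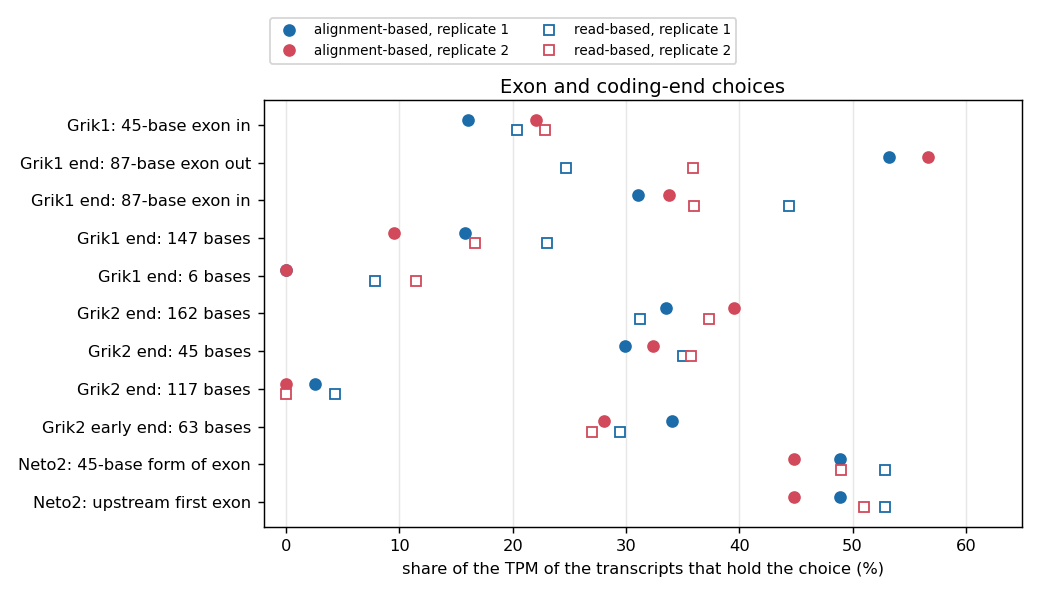
Share in percent of each alternative exon or coding end, among the transcripts of the gene that hold the choice, by replicate and kind of table. For Grik2 the early end is included in the denominator; the long and short ends lie close together, and for the Grik1 end without the 87-base exon the alignment-based values lie above the read-based ones.

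Grik3 and Grik4 had a single annotated coding sequence each. Grik3 had 1 transcript, Grik3-201, of 8973 bases and 919 codons. Grik4-201 and Grik4-202 share 956 codons and differ in the length before the coding sequence, 125 and 322 bases. They also differ in the length after it, 420 and 2697 bases with the stop codon. Grik4-201 held 64.8% of the TPM in replicate 1 and 69.3% in replicate 2, and 72.5% and 72.6% in the read-based tables. Grik4-201 led in all 4 tables, and the share of its start and of its ending cannot be told apart.

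Grik5 was carried mainly by Grik5-201, which encodes all 979 codons of the subunit. It held 80.9 TPM in replicate 1 and 76.2 in replicate 2, or 84.3% and 81.7% of the gene. Its read-based share was 63.7% and 67.3%. The 2 transcripts annotated for nonsense-mediated decay, the pathway that removes RNAs with early stop codons, held 6.40% and 8.20% in the alignment-based tables and 21.8% and 19.1% in the read-based ones. The larger part of the read-based share was Grik5-207, at 2.01 and 3.60 TPM in the alignment-based tables and 21.6 and 17.3 TPM in the read-based ones. The annotation tags Grik5-207 as not organism-supported, as it does Grik1-210, Grik1-211, Grik2-206, Neto1-202, Neto1-203 and Grid1-202. Retained-intron transcripts held 7.21% and 9.36%, and 12.9% and 12.4% in the read-based tables, and included Grik5-206, of 880 bases, at 3.13 TPM in replicate 1 and 3.82 in replicate 2. Grik5-201 led in all 4 tables, while the share of the other classes depended on the table.

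Grik5-202, the other transcript annotated for nonsense-mediated decay, differs by an extension of 25 bases at an early coding exon (chr7:25067985-25068009, minus strand), shown because it shifts the reading frame and leaves 130 codons. The capitals mark the extension, which is spliced between the lower-case bases. Its share was 4.30% in replicate 1 and 4.34% in replicate 2, while the read-based tables gave 6.68% and 7.10%.
Grik5 25-base extension: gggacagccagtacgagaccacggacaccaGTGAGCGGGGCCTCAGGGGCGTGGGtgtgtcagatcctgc

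Neto2 was divided between transcripts that begin at different first exons. Neto2-205 (525 codons) begins upstream and carries a coding exon of 45 bases. Neto2-201 (553 codons) begins downstream and carries the same exon in a form of 24 bases. The exon's 21-base extension (chr8:85663387-85663407, minus strand) adds 7 codons and is in capitals below, after the 24 bases common to both forms.
Neto2 21-base extension: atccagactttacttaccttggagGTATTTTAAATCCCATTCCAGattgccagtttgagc

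Transcripts with the upstream first exon held 48.9% of Neto2 TPM in replicate 1 and 44.8% in replicate 2, and those with the downstream one 51.1% and 55.2%. In the read-based tables the upstream exon held 52.9% and 51.02%, and the downstream exon 47.1% and 48.98%. Both first exons thus held near-equal shares of TPM, and which was ahead depended on the table. By expected counts, which are not corrected for length, Neto2-201 held a mean of 67.8% and Neto2-205 31.2%. Neto2-201 is annotated with no bases before its coding sequence, so its annotated start is that of the coding sequence. Neto2-205 and Neto2-201 also differ in the length after the coding sequence, 1107 and 3951 bases, so the share of the first exon and of the ending cannot be told apart in these tables.

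The bases before the upstream and a downstream Neto2 start differed in composition. RefSeq windows of 250 bases before the start (GRCm38.p6) were taken for the upstream start (chr8:85700925-85701174, minus strand) and the downstream start (chr8:85691010-85691259, minus strand). The upstream window had 72.0% G or C and 30 CpG, more than 94.1% of all 32817 promoter windows of that length, and the downstream window had 42.4% and 0 CpG. The medians over all windows were 52.4% and 6 CpG. Letters in capitals are matches, on either strand, to the TATA box letters TATAAA, to the GC box letters GGGCGG or to the CCAAT box, and no 2 of them overlap here. The upstream window held 2 matches to GGGCGG and the downstream window 1 to CCAAT. Of all windows, 12.4% held TATAAA, 32.7% GGGCGG and 33.8% CCAAT. The downstream RefSeq start is the annotated start of Neto2-202, a processed transcript at 0.08 TPM in replicate 1 and 0.34 in replicate 2, with read-based values of 0.996 and 2.08 TPM. It is not the annotated start of Neto2-201, which held 12.7 and 13.2 TPM and for which no window was taken.
Neto2 upstream start: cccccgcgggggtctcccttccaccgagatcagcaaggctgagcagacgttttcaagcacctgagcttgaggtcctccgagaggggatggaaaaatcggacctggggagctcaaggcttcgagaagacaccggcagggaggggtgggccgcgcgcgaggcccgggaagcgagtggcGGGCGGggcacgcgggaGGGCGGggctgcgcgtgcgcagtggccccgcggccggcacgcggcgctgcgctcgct
Neto2 downstream start: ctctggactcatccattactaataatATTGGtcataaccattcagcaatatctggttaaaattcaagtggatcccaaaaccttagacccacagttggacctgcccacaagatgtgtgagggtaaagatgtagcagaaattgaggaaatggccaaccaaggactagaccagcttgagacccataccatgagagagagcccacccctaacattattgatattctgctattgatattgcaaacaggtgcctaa

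Grid1 was nearly all Grid1-201 (1009 codons), with 97.1% of the TPM in replicate 1 and 90.9% in replicate 2, while the read-based tables gave it 100%. Grid1-202, a processed transcript of 825 bases, was at 0.60 TPM in replicate 1 and 1.45 in replicate 2 and was listed at 0 in the read-based tables. Over all members, the same transcript led in both replicates of both kinds of table for Grik3, Grik4, Grik5, Neto1 and Grid1, and not for Grik1, Grik2 and Neto2. Each of those 3 genes had the same leader in both replicates within a kind of table.

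**Figure D3:**
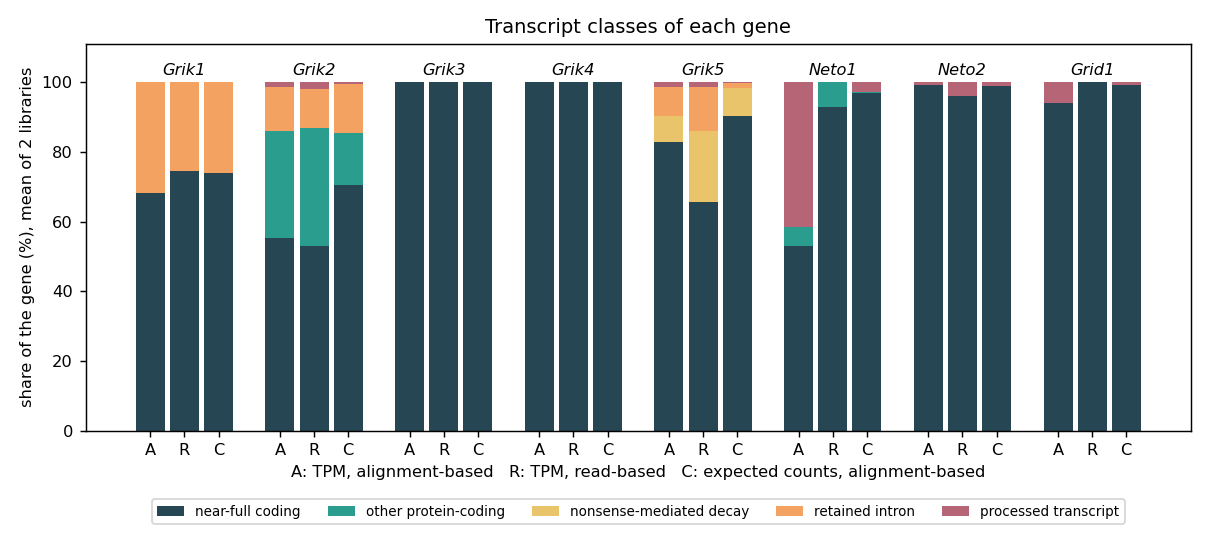
Share in percent of each gene held by each class of annotated transcript, as the mean of both libraries, by alignment-based TPM (A), read-based TPM (R) and alignment-based expected counts (C). The processed-transcript block of Neto1 is 41.6% of TPM and 2.67% of counts in the alignment-based tables.

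No member's ratio of scaled counts between the replicates came near 2-fold. The ratio of scaled counts, replicate 1 over replicate 2, was called different where the whole of its exact 95% interval lay past 2-fold and the 2 counts averaged 10 or more. None of the 8 members was called, where 0.307% of the 18562 genes tested were. At 1.5-fold none was called, against 0.479% of all genes. With shares this low, no call is the likely outcome for any 8 genes, so it is not particular to the members. The highest ratio was that of Grik1, with a log2 value of 0.13 (95% interval -0.03 to 0.29), and the lowest that of Grik4, with -0.10 (-0.26 to 0.06). Intervals that left out 0 were found for Neto1, with -0.10 (-0.16 to -0.03) from 3806 and 4131 counts, and for Grik3, with -0.08 (-0.14 to -0.01) from 3560 and 3807 counts. The Grik3 interval took in 0 when scaled by total counts (-0.11 to 0.02) and with read-based counts (-0.12 to 0.01). With read-based counts the Neto2 interval left out 0 (-0.18 to -0.01). The median log2 ratio was -0.06 over the 8 members and 0.00 over all genes tested, and the median absolute value was 0.08 and 0.09. Members are deeper than most genes: at a mean count of at least 500 the median absolute value was 0.05.

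These intervals cover counting error only, and a chi-square statistic over 12843 genes was 5.08 times its degrees of freedom, so the libraries differed by more than counting error. For Grik2, Grik3, Grik5, Neto1 and Neto2 the direction depended on the unit, since counts were lower and gene-level TPM higher in replicate 1. The TPM gap was slight for Grik3, at 19.63 and 19.60. With TPM rescaled to nuclear protein-coding genes, Grik3, Grik5 and Neto2 were lower in replicate 1, as by counts. Grik2 (80.9 and 70.8) and Neto1 (95.7 and 88.1) stayed higher. Grid1 had 2313 counts in replicate 1 and 2310 in replicate 2 and was the member with the log2 ratio nearest to 0, at 0.02.

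The members share only short identical stretches of sequence. Coding sequences of the leading near-full transcripts were 72.7% identical between Grik1 and Grik2, 72.3% between Grik2 and Grik3, 70.8% between Grik1 and Grik3 and 71.3% between Grik4 and Grik5. Neto1 and Neto2 were 66.2% identical, and Grid1 and the kainate subunits between 53.3% and 56.3%. Grid1 scored higher with the auxiliary genes, 60.4% with Neto1 and 60.6% with Neto2. The Grid1 and kainate values therefore cannot be read as sequence shared by related genes. The longest run of identical bases between transcripts of any pair of members was 61 bases, between Grik3 and Grid1. Annotated genes that share exonic bases with a member (for Grid1, Grik4, Neto1 and Neto2) held at most 2 counts in a library.

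By summed TPM, kainate subunits were the lowest of 3 ionotropic glutamate receptor families of unequal size. Their 5 genes summed to 170 TPM in replicate 1 and 161 in replicate 2, the 4 AMPA subunits to 484 and 466 TPM, and the 7 NMDA subunits to 488 and 478 TPM. Kainate subunits thus held 14.9% and 14.5% of the summed TPM of the 3 families, and 15.6% and 15.2% in the read-based tables. The median per gene gave another order, with 19.6 TPM in both replicates for kainate subunits, 98.1 and 95.9 TPM for AMPA subunits and 16.4 and 15.98 TPM for NMDA subunits. Grik5 was the only kainate subunit with a mean TPM above that of an AMPA subunit, being above Gria3 (89.2 ± 3.31 TPM) and Gria4 (46.1 ± 1.80 TPM). Gria2, the AMPA subunit that limits calcium entry, averaged 235 ± 8.01 TPM and Gria1 105 ± 0.212 TPM. Of the NMDA genes, 6 of 7 reached 1 TPM in both libraries, led by the obligatory subunit Grin1 (204 ± 12.6 TPM), Grin2b (127 ± 1.80 TPM) and Grin2a (115 ± 4.59 TPM), and Grin3b was lowest at 0.06 TPM in each. Grik4, the lowest kainate subunit at the gene level, was above Grin2d and Grin3b.

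**Figure D4:**
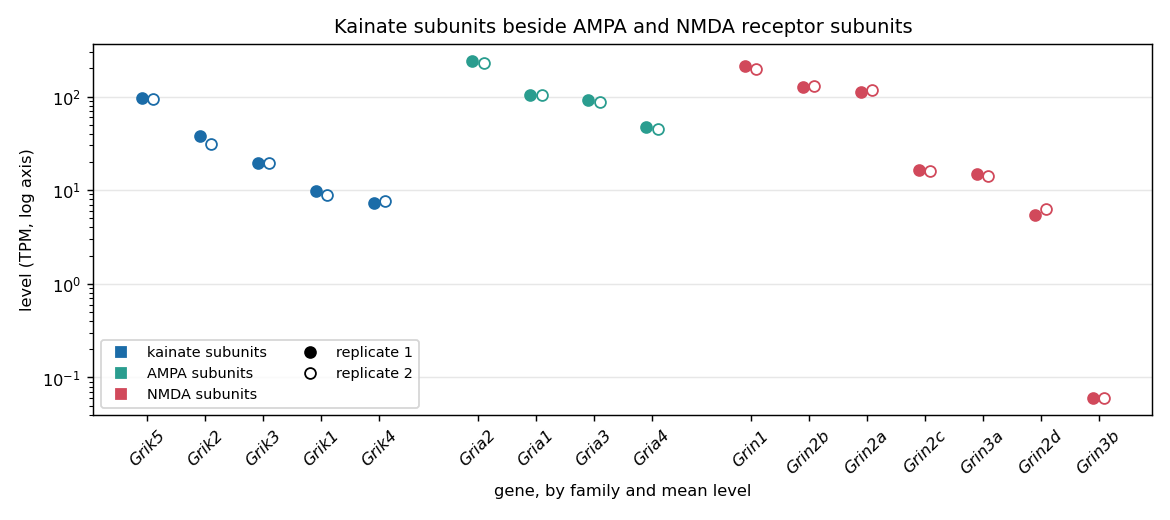
Level in TPM on a log axis of each kainate, AMPA and NMDA receptor subunit gene in replicate 1 (filled) and replicate 2 (open), from the alignment-based gene tables. Grik5 lies among the AMPA subunits, and the other kainate subunits between 7.28 and 37.8 TPM.

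Partners of the kainate receptors were present. Of 9 genes for scaffolds and trafficking proteins, 8 were matched and all 8 reached 1 TPM in both libraries, and the other was not analysed here. Dlg4, encoding the postsynaptic scaffold PSD-95, was the highest with 379.6 ± 7.64 TPM, above Dlg1, encoding SAP97, with 82.1 ± 4.47 TPM and the ubiquitin ligase scaffold Cul3 with 57.6 ± 4.48 TPM. The lowest was Grip2, a PDZ protein, with 8.07 ± 0.983 TPM. All 3 enzymes of the ADAR family were detected: Adar at 67.3 ± 3.73 TPM, Adarb1, which edits the pore site of glutamate receptor subunits including GluK2, at 64.6 ± 0.375 TPM, and the inactive Adarb2 at 11.9 ± 1.21 TPM. Editing itself was not measured by these tables.

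Extracellular partners of Grid1 and of kainate subunits were mostly low. Of 7 C1q-family ligands, 6 reached 1 TPM in both libraries. C1ql3, which binds kainate receptors at hippocampal mossy fibre synapses, was the highest with 48.4 ± 0.361 TPM, followed by the cerebellins Cbln2 with 21.1 ± 1.12 TPM and Cbln4 with 11.8 ± 0.226 TPM. Cbln3 was lowest at 0.11 TPM in each library. Cbln2 was close in level to Grid1, the receptor it binds, in these tables, while in the read-based ones Cbln2 was at 34.2 and 39.1 TPM and Grid1 at 27.0 and 26.7 TPM. The neurexins, presynaptic partners of the cerebellins, were higher where reported here: Nrxn2 averaged 273 ± 10.97 TPM and Nrxn3 112 ± 6.78 TPM. Among the genes of these lists that met the count minimum for a call, none was called different between the replicates. Of all genes tested 0.307% were called, so no call is the likely outcome for lists this short. Cbln3, with 5 counts in replicate 1 and 12 in replicate 2, fell below that minimum and could not be called.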

How the data were processed

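Total RNA-seq of 2 libraries of left cerebral cortex was used, all on mm10 with GENCODE M21, per the lists that came with the files. The authors deposited expected counts and TPM per gene and transcript derived from transcriptome alignments (alignment-based), and, per transcript only, estimated counts with TPM made from reads and an index (read-based). The tools of both were not given in the sources used here. In the alignment-based tables, long transcripts were 99 bases longer than their effective length. Reads of CAST/EiJ alleles were quantified against the C57BL/6J reference. TPM was used as deposited, and a gene's read-based value is the sum of its transcripts.

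Expected counts were rounded and scaled by the TMM method (edgeR 4.0.16, run in R 4.3.3) on genes averaging 10 counts or more. The log2 ratio used a prior count of 0.5, with an exact Clopper-Pearson 95% interval. The rule was checked on simulated data. Alternatives covered scaling (DESeq2 1.42.0 size factors, total counts, spike-ins), filter, prior count, threshold, the read-based tables and leaving out a replicate. Restricting genes to near-full coding transcripts was added after the data were seen. Coding sequences were aligned with Biopython 1.88. No label names molecular identifiers, so PCR copies may have been counted separately, and the intervals cover counting error only.

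The members and lists were chosen with earlier results of these data known. All members are named, with their transcripts at 5% or more of the gene's TPM in any table, and of each partner list the 3 highest genes and the lowest. A gene that this rule takes in is not reported here. The largest replicate ratios of members were picked after their values were seen.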

Additional observations from a re-analysis of the deposited data

How the results depend on the processing

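All 8 members reached 1 TPM in both libraries under the read-based tables, under TPM rescaled to nuclear protein-coding genes and with either replicate left out. The rescaling moved the level of all 8, with Grik5 going from 94.6 to 208 TPM and Grik4 from 7.44 to 16.4. The levels printed above thus depend on which RNAs are in the total. No member was called different between the replicates under DESeq2 size factors, total counts, spike-in scaling, no count filter, a prior count of 2, a 1.5-fold threshold or the read-based counts. Under these settings between 0.218% and 0.479% of all genes tested were called, so no call among 8 genes is the likely outcome in each. The share of the 3 receptor families held by kainate subunits was 14.7% ± 0.28 (SD, n = 2), was 15.4% in the read-based tables, and ranged from 14.5% to 14.9% with a replicate left out.

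The gene-level ratio of Neto1 over Neto2, 1.69, was turned to 0.931 in the read-based tables, 0.896 over near-full coding transcripts and 0.894 over those in the read-based tables. The alignment-based near-full value leaves out the 384-base Neto1-203 by construction, while the read-based tables list that transcript at 0. The ratio of Grik2 over Grik3, 1.76, was turned to 0.964 over near-full coding transcripts, which leave out the truncated and fragmentary transcripts, and was 1.04 over those in the read-based tables. Over those transcripts the ratio of Grik5 over Grik4, 12.7, was 10.6, and 7.94 in the read-based tables.

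No paired analysis was possible because there was 1 group. With 2 libraries, an SD is itself poorly known, and transcripts wholly contained in others, such as Neto1-203 and Grik2-206, rest on the quantification model and on few counts. Grik1 and Grik4, with 602 to 677 counts in a library, had the widest intervals.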
